A study of Mus musculus with 30 samples.

Results

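In 21 day old C57BL/6 mice, mechanical ventilation (MV) given after inhaled lipopolysaccharide (LPS) can be set against what LPS alone and MV alone would add up to. The quantity described here is the LPS by ventilation interaction, (LPS+MV minus LPS) minus (MV minus control), taken on the log2 scale for every gene. It uses the 14 juvenile arrays of 30 in the series. An interaction of 0 means that the log2 change of LPS+MV against control equals the sum of the changes of LPS alone and MV alone. A positive value means that LPS+MV lies above that sum and a negative value that it lies below.

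RNA came from whole lung. The 4 juvenile controls were untreated and breathed spontaneously. The 4 LPS animals spent 30 min in a closed chamber with nebulised LPS (20 mL at 0.1 mg/mL) and then breathed on their own for 2 h. The 3 MV animals were ventilated for 2 h at a tidal volume of 15 mL/kg, 80 breaths per minute, an end-expiratory pressure of 2 cmH2O and 30% oxygen. The 3 LPS+MV animals inhaled LPS and were ventilated straight afterwards in the same way. Controls have no stated study period, so handling and time are shared by the treated groups only. An effect common to the treated groups and absent from controls would enter the interaction with its sign reversed. The part of such an effect in the results was not tested. The 16 adult arrays, from mice of 16 weeks with 4 per group and the same treatments, were used for comparison. Sex, litter and batch are not in the labels. The labels do not say whether each array is a separate animal, and p-values measure the spread between these arrays.

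LPS is a component of the outer membrane of Gram-negative bacteria. It is sensed through Toll-like receptor 4, which signals through NF-kB and interferon regulatory factors and switches on cytokines, chemokines and acute phase genes. Ventilation at a large tidal volume stretches the alveolar wall. Stretch acts on the actin cytoskeleton and on transcription factors such as SRF, which works with actin-regulated coactivators at CArG boxes. Ventilation after LPS is a common model in which inflammation and stretch are combined.

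Facts that touch all results are these. Type 2 markers Sftpc and Sftpb, type 1 markers Ager and Aqp5, the airway marker Scgb1a1 and the endothelial markers Pecam1 and Cdh5 were present on all 14 arrays. Summed intensity of the neutrophil marker list was 2360 to 6057 in controls, 4938 to 7452 with MV, 16420 to 17350 with LPS and 23520 to 24760 with LPS+MV. In whole lung, more cells of a type and more RNA per cell cannot be told apart. Heat shock genes had a mean log2 level of 12.25 on MV replicate 3 and 11.46 on LPS+MV replicate 3, against 9.31 to 10.54 on the other arrays. Xist, expressed from the inactive X chromosome, was high on 2 of 3 LPS+MV arrays, 1 of 3 with MV, 1 of 4 controls and 0 of 4 with LPS. The part of these differences in the results was not tested, except that a term for the Xist pattern was fitted.

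Of 13089 genes tested, 98 had an interaction with an adjusted p under 0.05 in limma (0.749%). LPS+MV lay above the sum in 44 (0.336%) and below it in 54 (0.413%). At an unadjusted p under 0.05 there were 1585. The median over all genes was -0.01, and 20 of the 98 had an interaction of at least 1 in size, 9 above and 11 below. Values were taken as log2(intensity + 32), which understates changes of dim genes. An interaction is a difference of such changes, so it can be understated or overstated. Without the pseudocount, Mid1 went from 1.01 to 1.85 and G530011O06Rik from 1.81 to 1.42. All 98 genes departed in the same direction when intensities were added in place of logs. Values below are interactions on the log2 scale ± SE, or intensities. A prediction is the intensity in LPS+MV at which the interaction would be 0.

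The count depended on a few arrays. It was 54 without LPS+MV replicate 3 and 63 without MV replicate 1. Genes above the sum then numbered 20 and 27, and they numbered 29 without LPS replicate 3 and 24 without LPS replicate 4. Genes below the sum numbered 34 without LPS+MV replicate 3. Only 38 passed when the 14 juvenile arrays were fitted alone, and 508 passed with array weights, which gave LPS+MV replicate 3 the lowest weight of the 14. Of the 98, 42 passed whichever array was left out, and 26 passed in every alternative tried. Fitting the juvenile arrays alone left each interaction as it was, with a median standard error over all genes of 0.134 against 0.130, and 30 of its 38 genes were among the 98. Of the genes described below, that fit ended the calls of Adamts4, Sowahb, Krt23, Bex2, Srf, Nes, Has2, Cd83, Sod2, Irak3, Hhex, Ankrd63, Armcx4, Zfp503 and Foxa2.

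**Figure D1:**
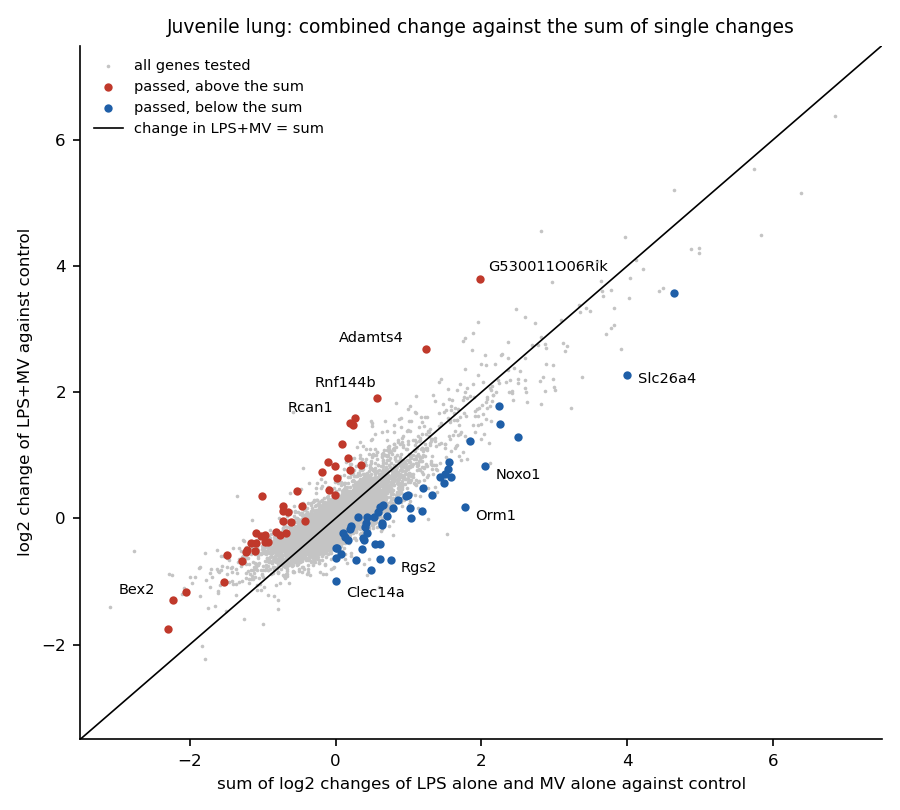
Each point is 1 of 13089 genes. The x axis is the sum of the log2 changes of LPS alone and MV alone against control, the y axis the log2 change of LPS+MV against control, both on the log2(intensity + 32) scale, and the line marks equality. Red points are the 44 genes that passed above the line and blue points the 54 that passed below it.

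The genes fell into several shapes. Among the 44 above the sum, LPS+MV had the highest mean in 22 and control in 21, and the lowest mean was that of LPS in 28. Among the 54 below, LPS had the highest mean in 34 and MV in 20, and the lowest was LPS+MV in 23, control in 16 and MV in 13. All 3 LPS+MV arrays lay above the other 11 juvenile arrays in 16 of the 44, a pattern seen in 2.5% of all genes tested. All 3 lay below the other 11 in 13 of the 54, against 3.95% of all genes. These positions follow in part from the test itself.

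The first shape is a rise seen with the combination. Rnf144b, which encodes an RBR-type E3 ubiquitin ligase, was at 287, 264, 289 and 221 in the 4 controls. It was at 307, 296 and 342 with MV and at 364, 379, 274 and 362 with LPS. In LPS+MV it was at 1020, 1240 and 1010, where the single changes predict 406. The interaction was 1.35 ± 0.17 (limma adjusted p = 7.0e-05), and no LPS+MV array overlapped the others.

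Rcan1 encodes an inhibitor of calcineurin, the calcium-dependent phosphatase. Its mean was 357 ± 45.5 (SD, n = 4) in controls, 358 ± 56 (n = 3) with MV and 435 ± 50 (n = 4) with LPS. The 3 LPS+MV arrays were at 794, 1250 and 1480, above all others, with a prediction of 433. The interaction was 1.33 ± 0.25 (limma adjusted p = 0.0069).

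Sgms2, a sphingomyelin synthase, and Mid1, a microtubule-associated E3 ligase, were dim in the other 3 groups. Sgms2 lay between 29.8 and 45.3 on 11 arrays and at 99.5, 152 and 113 in LPS+MV (1.08 ± 0.20, limma adjusted p = 0.0047). A second Sgms2 probe set gave 0.30, and the mean over probe sets gave 0.69. Mid1 lay between 20.2 and 27.3 on 11 arrays and at 64.9, 76.2 and 79.3 in LPS+MV (1.01 ± 0.17, adjusted p = 0.0026). Without the pseudocount Mid1 gave 1.85. Has2, a hyaluronan synthase named after its values were seen, was at 13.7 in controls and 50.3 in LPS+MV (0.50 ± 0.10, adjusted p = 0.0074), and it missed the threshold with no pseudocount (0.92, adjusted p = 0.057).

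Csf3 encodes G-CSF, the growth factor of neutrophils. It was at 15.3, 16.8, 20.9 and 22.6 in controls, at 18.7, 16.3 and 18 with MV, at 33.8, 27.8, 29.1 and 26.5 with LPS, and at 83.2, 142 and 109 in LPS+MV. The interaction was 1.24 ± 0.29 (limma adjusted p = 0.035). Leaving out any of 10 arrays (control replicates 3 and 4, MV 1 to 3, LPS 2 to 4, LPS+MV 2 and 3) ended the call, with 1.09 to 1.39 and adjusted p up to 0.094 over all 14. With a term for the Xist pattern it was 1.06 (adjusted p = 0.096), and with no pseudocount 1.98.

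Adamts4, an aggrecan-cleaving protease, was at 169, 330 and 497 in LPS+MV against 66.5 to 107 with LPS and at most 31.5 elsewhere (1.44 ± 0.33, limma adjusted p = 0.028). The threshold was missed without control replicate 3, MV 1, MV 2, LPS 2, LPS+MV 2 or LPS+MV 3 (1.12 without the last, adjusted p = 0.10) and with no pseudocount (1.68, adjusted p = 0.092). The transcript G530011O06Rik had the highest interaction of the genes that passed, 1.81 ± 0.38 (adjusted p = 0.014), with 478, 527 and 811 in LPS+MV against 59 to 130 with LPS. It missed the threshold without MV replicate 2 (1.55, adjusted p = 0.064), without LPS+MV replicate 3 (1.59, adjusted p = 0.063) and with no pseudocount (1.42, adjusted p = 0.29). Sowahb was at 184, 220 and 398 in LPS+MV and at 50.9 to 116 elsewhere (1.33 ± 0.27, adjusted p = 0.011). It missed the threshold without MV replicate 2 (1.13, adjusted p = 0.052), and it reached 1.03 without LPS+MV replicate 3, also a miss.

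Srf, the serum response factor, combined both shapes above the sum and was named after its values were seen. It was at 134, 159, 138 and 192 in controls, at 195, 168 and 167 with MV, at 126, 121, 109 and 107 with LPS, and at 230, 242 and 383 in LPS+MV. The LPS arrays were the 4 lowest and the LPS+MV arrays the 3 highest. The interaction was 0.91 ± 0.20 (limma adjusted p = 0.026), against a prediction of 133. It missed the threshold without control replicate 4, MV 2, MV 3, LPS 3, LPS 4 or LPS+MV 3 (0.70 without the last, adjusted p = 0.097) and with the Xist term (0.87, adjusted p = 0.062). Its probe set may bind related transcripts, and a second Srf probe set gave 0.51.

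The promoter windows of Srf and Rcan1 are shown because both genes lay above the sum and their windows held matches to motifs of stimulus-responsive transcription factors. They come from RefSeq on GRCm38.p6, 250 bases before a start and 50 from it, 5′ to 3′ on the minus strand. The Srf window is chr17:46556113-46556412, and its capitals mark 2 CArG boxes, the binding motif of SRF, which begin 82 and 62 bases before the start. Rcan1 has 2 windows. The one shown, chr16:92400029-92400328, holds a cyclic AMP response element (TGACGTCA) 175 bases before the start and an AP-1 site (TGANTCA) 110 bases before it, both in capitals. The other Rcan1 window held neither motif.
Srf: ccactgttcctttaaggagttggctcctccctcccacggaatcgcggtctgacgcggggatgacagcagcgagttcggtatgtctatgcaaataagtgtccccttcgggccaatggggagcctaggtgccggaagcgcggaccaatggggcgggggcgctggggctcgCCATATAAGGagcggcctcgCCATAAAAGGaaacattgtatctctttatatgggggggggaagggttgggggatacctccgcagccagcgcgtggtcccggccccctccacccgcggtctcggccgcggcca
Rcan1: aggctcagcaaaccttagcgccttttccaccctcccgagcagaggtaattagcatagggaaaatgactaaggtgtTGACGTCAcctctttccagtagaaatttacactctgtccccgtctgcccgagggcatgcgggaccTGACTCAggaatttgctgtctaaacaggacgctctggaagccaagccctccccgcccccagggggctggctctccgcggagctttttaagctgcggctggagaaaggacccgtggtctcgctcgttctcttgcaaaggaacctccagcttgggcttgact

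The search covered 7 motifs on both strands, 1 of them in 2 forms, and these windows were picked after its matches were seen. Of the genes that passed, 33 above and 44 below the sum had a window. A CArG box was found in 1 and 0 of them, against 1.81% of all 27025 genes with a window. An AP-1 site was found in 4 and 2 (8.97% of all), a cyclic AMP response element in 1 and 0 (2.03%), and an E-box (CACGTG) in 5 and 6 (8.09%). The NFAT core GGAAA was found in 24 and 25 (64.4%), an NF-kB site in 2 and 5 (9.55%), and an interferon-stimulated response element in 0 and 3 (3.99%). A shorter NF-kB pattern was searched first and then replaced by the consensus. It bars G at a position where the consensus allows any base. This pattern was found in 15 and 14 (24.5%). The NFAT core can lie inside matches to the NF-kB and interferon motifs. Matches are descriptions of these windows and not evidence of binding.

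**Figure D2:**
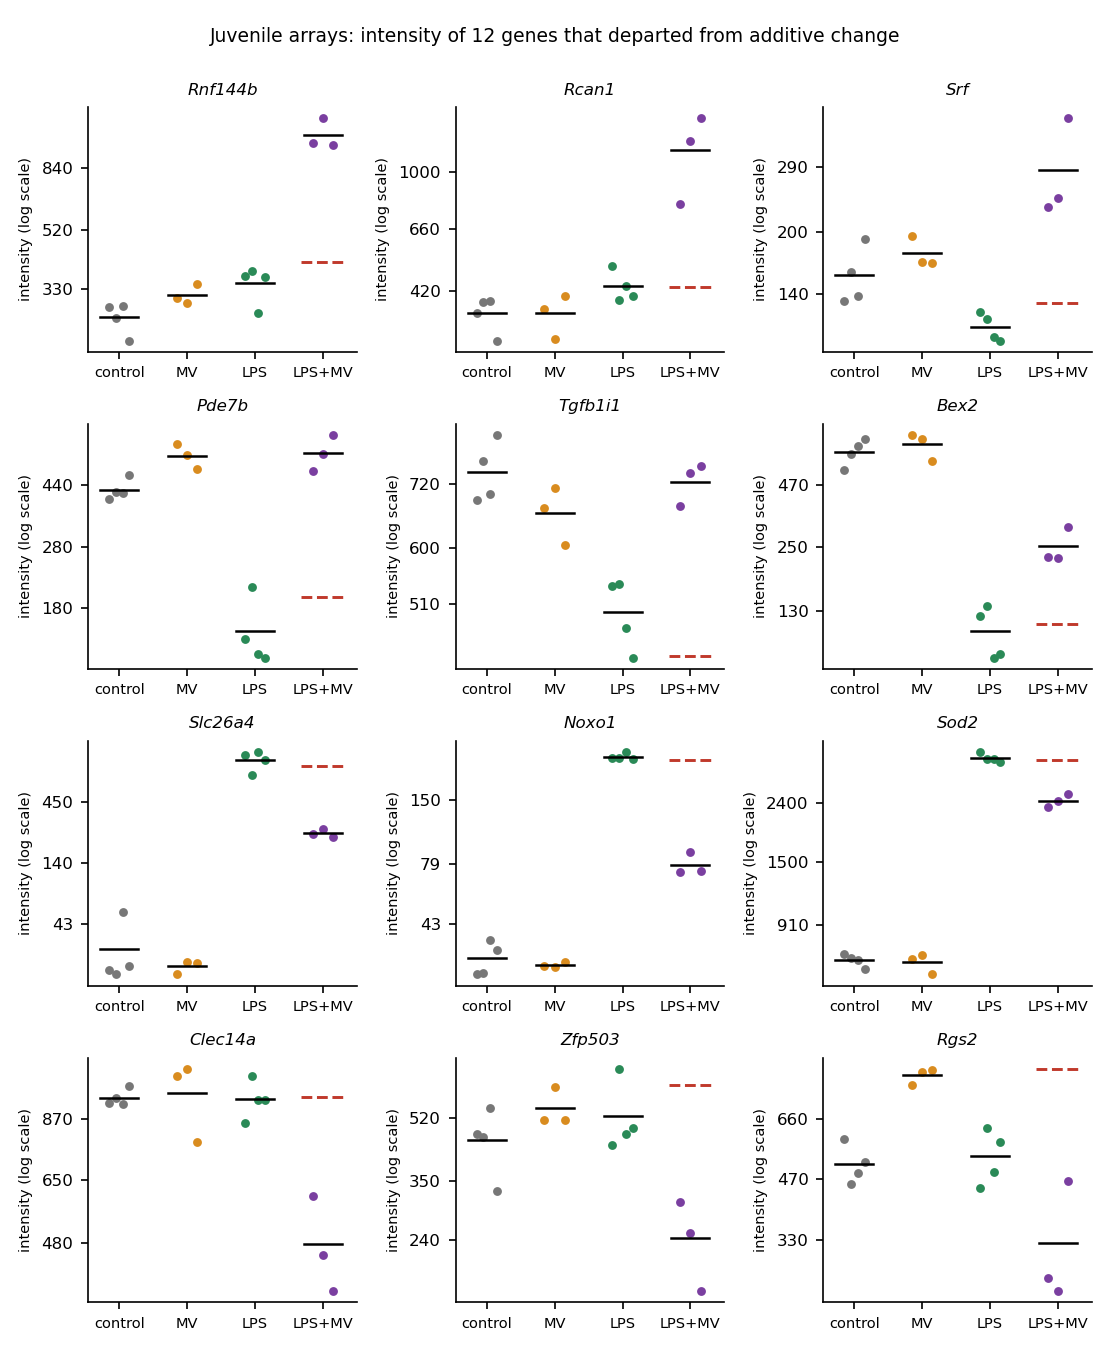
Intensity of 12 genes on the 14 juvenile arrays, on log axes. Points are arrays, black bars group means, and the dashed red line is the level in LPS+MV at which the interaction would be 0; the 3 LPS+MV arrays sit above it in the upper 2 rows of panels and below it in the lower 2 rows.

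The next shape is a level that was low with LPS and higher when ventilation followed. Pde7b, a cyclic AMP phosphodiesterase, was at 397, 417, 414 and 475 in controls and at 592, 547 and 495 with MV. With LPS it was at 143, 209, 128 and 125, and in LPS+MV at 488, 551 and 634, against a prediction of 195. The LPS arrays stood below all others, and the LPS+MV arrays overlapped those of MV. The interaction was 1.37 ± 0.21 (limma adjusted p = 7.1e-04). Its other 2 probe sets gave 0.44 and 0.11, and the mean over the 3 gave 0.64.

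The next 3 genes had the same shape and were chosen after their values were seen. Tgfb1i1, the focal adhesion protein Hic-5, was at 687 to 828 in controls, 438 to 541 with LPS and 675 to 757 in LPS+MV (0.68 ± 0.12, limma adjusted p = 0.0043). Nes, the intermediate filament nestin, was at 335 ± 83.6 (SD, n = 4) in controls, 207 ± 18.4 (n = 4) with LPS and 360 ± 16.3 (n = 3) in LPS+MV (0.84 ± 0.17, adjusted p = 0.0086), and at 0.51 over the mean of its probe sets. Diaph3, an actin-nucleating formin, was dim at 15.1 to 29.8 on all arrays (0.38 ± 0.08, adjusted p = 0.01), and at 0.93 with no pseudocount. Its mean was 27.4 in controls, 21.8 with MV, 17.1 with LPS and 26 in LPS+MV. The prediction of 12.5 lay below every juvenile array, and the part of background signal in this departure was not tested. Another formin, Fmnl2, also chosen after its values were seen, went the other way. It was at 340 to 394 in controls, 528 to 579 with MV, 629 to 753 with LPS and 511 to 578 in LPS+MV (-0.93 ± 0.13, adjusted p = 3.2e-04).

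Krt23, a keratin, was at 72.1 to 100 in controls, 37.4 to 61.7 with LPS and 110, 117 and 169 in LPS+MV (0.97 ± 0.21, limma adjusted p = 0.021). It missed the threshold without MV replicate 1, MV 2, LPS 4 or LPS+MV 3, at 0.81 without the last (adjusted p = 0.085). Fam167a was at 58.9 in controls, 29.1 with LPS and 71.3 in LPS+MV (0.92 ± 0.15, adjusted p = 0.0024), and at 1.54 with no pseudocount.

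In Bex2 and Ppp1r14c the level stayed low. Ppp1r14c, an inhibitor of protein phosphatase 1 named after its values were seen, was at 842 ± 43.4 (SD, n = 4) in controls and 643 ± 24.2 (n = 3) with MV. It was at 243 ± 40.9 (n = 4) with LPS and 356 ± 34 (n = 3) in LPS+MV, where the prediction was 179 (0.88 ± 0.15, limma adjusted p = 0.0024). Bex2 was at 549 to 785 in controls and MV, 80.7 to 136 with LPS, and 226, 223 and 307 in LPS+MV (0.94 ± 0.23, adjusted p = 0.042). The call of Bex2 was lost without control replicates 2 to 4, MV 1 to 3, LPS 3 or 4, or LPS+MV 3, each left out alone (0.81 to 1.04 over all 14, adjusted p up to 0.13). It was lost too with the Xist term (0.98, adjusted p = 0.056) and with no filter (adjusted p = 0.056).

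Below the sum, LPS had the highest mean in most genes, and the level was lower when ventilation followed. Slc26a4 encodes pendrin, an epithelial anion exchanger. It was at 17.9, 16.5, 54.7 and 19.3 in controls and at 16.6, 20.8 and 20.5 with MV. With LPS it reached 1110, 749, 1170 and 1000, and in LPS+MV 242, 269 and 230, against a prediction of 886. The 4 groups of arrays did not overlap except for control and MV. The interaction was -1.72 ± 0.23 (limma adjusted p = 1.9e-04), the lowest of the genes that passed.

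Noxo1, the organiser subunit of an epithelial NADPH oxidase, had the smallest p. It was at 25.7, 26, 36.4 and 32.8 in controls, at 28, 27.6 and 29.1 with MV, at 230, 230, 245 and 227 with LPS, and at 72.8, 88.6 and 73.3 in LPS+MV. Replicates were tight, and the LPS+MV arrays stood between LPS and the rest. The interaction was -1.22 ± 0.13 (limma adjusted p = 7.4e-06). Without any single array it stayed between -1.29 and -1.19.

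Orm1, an acute phase plasma protein, was at 101, 154, 147 and 118 with LPS and at 17, 25.4 and 19.5 in LPS+MV, with 12.4 to 17.9 on the control and MV arrays (-1.60 ± 0.30, limma adjusted p = 0.0053). With no pseudocount it was -2.63. Vnn1, a pantetheinase, was at 323 in controls, 479 with MV, 1370 with LPS and 833 in LPS+MV (-1.22 ± 0.20, adjusted p = 0.0014). The prediction for Vnn1 was 1980.

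Other genes of this shape were picked after their values were seen. Mmp13, a collagenase, was at 63.8 to 75.4 with LPS and at 16.3, 32 and 18.4 in LPS+MV (-0.94 ± 0.15, limma adjusted p = 7.1e-04), and at -1.76 with no pseudocount. Slc5a1, the sodium-glucose cotransporter SGLT1, was at 93.5 with LPS and 42.1 in LPS+MV (-0.72 ± 0.11, adjusted p = 7.1e-04). A second Slc5a1 probe set gave -0.36. Cd302, a C-type lectin receptor, was at 1280 to 1350 with LPS and 680 to 801 in LPS+MV (-0.77 ± 0.10, adjusted p = 1.9e-04).

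Sod2, on the antioxidant list, and Irak3, on the LPS receptor and NF-kB list, had this shape too. Sod2, the mitochondrial superoxide dismutase, was at 643 to 721 in controls, 3320 to 3590 with LPS and 2320 to 2560 in LPS+MV (-0.46 ± 0.10, limma adjusted p = 0.016). It missed the threshold without MV replicate 1 (-0.44, adjusted p = 0.057) and without MV replicate 2 (-0.42, adjusted p = 0.066). Irak3, a negative regulator of Toll-like receptor signalling, was at 127 with LPS and 83.6, 103 and 52.4 in LPS+MV (-0.66 ± 0.15, adjusted p = 0.033). The call of Irak3 was lost without control replicates 2 or 4, MV 1 or 2, LPS 1 or 3, or LPS+MV 3 (-0.47 without the last, adjusted p = 0.10), over the mean of its probe sets (-0.37, adjusted p = 0.15) and with the Xist term (-0.63, adjusted p = 0.069).

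Cd83, a marker of mature dendritic cells and on no list, was at 77.1 in controls and 162 with MV. It was at 1220 to 1750 with LPS and 1070, 1140 and 1640 in LPS+MV, so the last groups overlapped. Its log2 change was 0.81 ± 0.17 from control to MV (limma adjusted p = 0.0032). From LPS to LPS+MV it was -0.25 ± 0.17 (adjusted p = 0.35). The interaction was -1.07 ± 0.24 (limma adjusted p = 0.026), a departure from a prediction of 2680. The threshold was missed without control replicate 3, MV 1, MV 3, LPS 1, LPS 3, LPS+MV 1 or LPS+MV 2, with -1.26 to -0.94 over all 14 arrays and adjusted p up to 0.08.

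A further shape is a level below all others in LPS+MV. Clec14a, a lectin of the endothelial surface, was at 939, 962, 937 and 1020 in controls, 1070, 1110 and 780 with MV, and 854, 1070, 954 and 956 with LPS. In LPS+MV it was at 601, 452 and 380, where 967 was predicted (-0.99 ± 0.17, limma adjusted p = 0.0033). A second Clec14a probe set gave -0.45. Of the 17 genes tested on the endothelial list, 0 passed in limma, 4 had an unadjusted p under 0.05, and their median was 0.05. Over all genes tested, 0.749% passed, 1585 of 13089 were under 0.05 unadjusted, and the median was -0.01. The 0 of 17 does not show additive change in endothelial genes.

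Zfp503, a zinc finger protein, was at 329 to 553 in controls and at 307, 251 and 174 in LPS+MV (-1.31 ± 0.27, limma adjusted p = 0.012). It missed the threshold without LPS+MV replicate 3 (-1.12, adjusted p = 0.059). Ankrd63 was at 69.7 to 73.3 in controls and 44.3 to 49 in LPS+MV (-1.02 ± 0.20, adjusted p = 0.01). Efna1, the ligand ephrin-A1, was at 279 to 352 in controls and 202 to 257 in LPS+MV (-0.96 ± 0.17, adjusted p = 0.0031). Foxa2, a transcription factor of airway and alveolar epithelium, was at 184 to 254 in controls and 119 to 130 in LPS+MV (-0.63 ± 0.13, adjusted p = 0.015). Foxa2 missed the threshold without MV replicate 1 (-0.59, adjusted p = 0.058) or LPS+MV replicate 3 (-0.60, adjusted p = 0.053). Efna1 and Foxa2 were named after their values were seen.

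The last shape is a level that was high with ventilation in otherwise untreated lungs and not after LPS. Rgs2, a regulator of G protein signalling, was at 589, 455, 485 and 518 in controls and 805, 869 and 877 with MV. It was at 444, 628, 488 and 579 with LPS and at 265, 246 and 464 in LPS+MV (-1.41 ± 0.24, limma adjusted p = 0.0026). The MV arrays were above all others. Hhex, a homeobox factor, was at 109 in controls, 183 with MV, 153 with LPS and 106 in LPS+MV (-1.04 ± 0.22, adjusted p = 0.015). It was -0.92 without MV replicate 3 (adjusted p = 0.052), and -1.01 without LPS+MV replicate 3, also a miss.

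Snhg1, a host gene of small nucleolar RNAs, was higher with each single treatment. It was at 171 to 237 in controls, 299 to 358 with MV, 284 to 363 with LPS and 197 to 255 in LPS+MV (-1.07 ± 0.18, limma adjusted p = 0.0025). Armcx4 was at 132 to 229 in controls, 240 to 267 with LPS and 134, 145 and 45.8 in LPS+MV (-1.25 ± 0.30, adjusted p = 0.046). Its call was lost without any single array but control replicate 2, LPS+MV 1 or LPS+MV 2, at -0.87 without LPS+MV replicate 3 (adjusted p = 0.14), and it was -0.83 with array weights (adjusted p = 0.056) and -1.06 with the Xist term (adjusted p = 0.12). With no pseudocount it was -1.56 (adjusted p = 0.064), and with no filter the adjusted p was 0.062.

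The 33 lists cover LPS and stretch pathways and also cell types and other pathways. Of 465 genes tested on them, 4 passed, Csf3, Sod2, Irak3 and Rgs2, a share of 0.86% beside 0.749% of all genes tested. The other 94 genes that passed are on no list. Among genes named after their values were seen, the chemokine Cxcl1 was at 1840 with LPS and 2200 in LPS+MV (-0.20 ± 0.30, limma adjusted p = 0.85). Cxcl2 was at 994 and 1550 (0.56 ± 0.28, adjusted p = 0.42) and Cxcl10 at 4470 and 4350 (-0.47 ± 0.34, adjusted p = 0.62). Tnf was at 119 and 140 (0.31 ± 0.19, adjusted p = 0.53). Cxcl1 and Cxcl10 were dim without LPS, at means of 14.4 and 19.5 in controls and 30.5 and 42 with MV. With the pseudocount, these rises and the negative interactions of both genes are understated. The misses of Cxcl1, Cxcl2, Cxcl10 and Tnf do not show additive change.

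Il6, an inflammatory cytokine, had a large estimate and did not pass. It was at 12.5, 10.9, 8.4 and 12.3 in controls, at 86.3, 16 and 20.1 with MV, at 175, 66, 206 and 274 with LPS, and at 440, 854 and 2460 in LPS+MV. All LPS+MV arrays were above all others and differed widely among themselves. The interaction was 1.74 ± 0.56 (limma adjusted p = 0.16), and it passed without LPS+MV replicate 1 (2.29, adjusted p = 0.035). It was 0.82 with array weights (adjusted p = 0.40). The pseudocount raises this estimate. It compresses the step from control to MV, a log2 change of 0.63 at means of 11 and 40.8. The step from LPS to LPS+MV, 2.37 at means of 180 and 1250, is compressed less.

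Lists as wholes are given by counts and medians, from limma, beside a median of -0.01 and 1585 of 13089 genes with an unadjusted p under 0.05. Inflammatory cytokines had a median of 0.07, with 1 of 14 past the threshold and 5 under 0.05 unadjusted. The LPS receptor and NF-kB list had -0.01, with 1 of 22 and 7. Interferon-stimulated genes had -0.29, with 0 of 24 and 8. Neutrophil chemokines and receptors had -0.18, with 0 of 8 and 2, and CC chemokines -0.05, with 0 of 12 and 3. Of the stress lists, immediate early genes had 0.19, with 0 of 24 and 3, and heat shock chaperones -0.22, with 0 of 13 and 0. YAP targets and stretch-responsive genes had -0.01, with 0 of 15 and 2. Neutrophil markers, whose summed level differed between groups, had 0.19, with 0 of 16 and 1.

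The highest list medians came from elsewhere. Red cell and haem genes had 0.85, with 0 of 7 past the threshold and 4 under 0.05 unadjusted. Their mean log2 level was 8.72, 8.53 and 9.28 with MV, 9.28 to 9.78 in controls, 8.63 to 9.53 with LPS and 8.78 to 9.24 in LPS+MV. Cell cycle genes had 0.70, with 0 of 22 and 10, and 21 of the 22 were above 0, against 6335 of all 13089 genes tested. Their mean log2 level was 8.63 on control replicate 1 and 7.12 to 7.86 on the other controls. It was 7.11 to 7.61 with MV, 6.82 to 7.04 with LPS and 6.77 to 7.35 in LPS+MV. The part of control replicate 1 in the cell cycle median was not tested. Airway epithelial markers had 0.47, with 0 of 12 and 3.

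**Figure D3:**
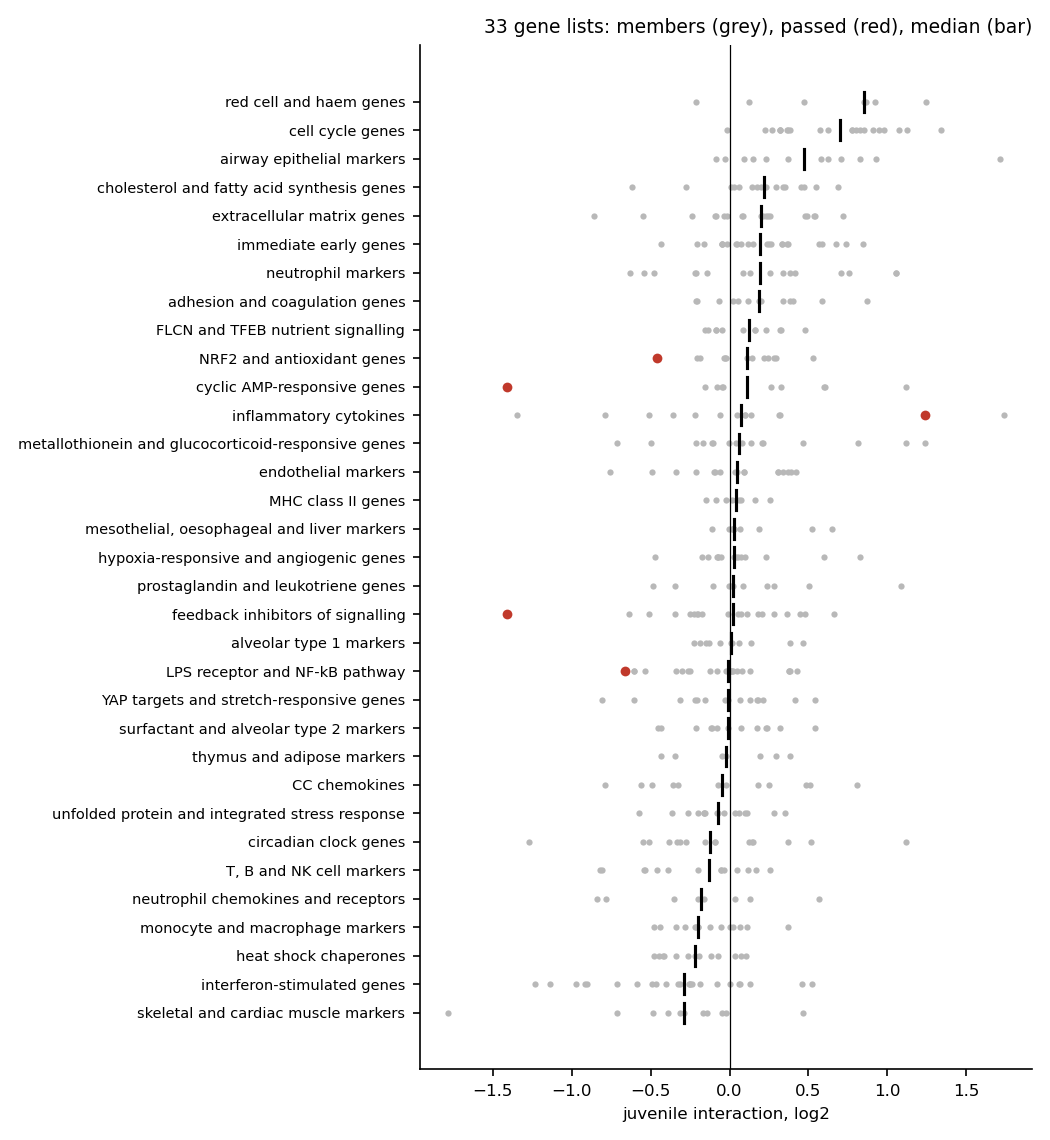
Juvenile interaction (log2, x axis) of the members of 33 gene lists (y axis). Grey points did not pass, the red points are Csf3, Irak3, Sod2 and Rgs2 (on 2 lists), and bars are medians, which run from -0.29 to 0.85.

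The same contrast in adults uses other animals. It shares the estimate of spread, the filter and the probe set chosen for each gene. There, 937 genes passed (7.16%), 720 above the sum (5.5%) and 217 below (1.66%). Of the 98 juvenile genes, 30 passed in adults, 25 in the same direction, of which 14 were above and 11 below. The sign was shared in 68 of 98, and in 57.5% of all genes tested. By direction, it was shared in 38 of the 44 above the sum and in 30 of the 54 below. The adult median was 0.31 in the 44, -0.02 in the 54 and 0.07 over all genes tested. High Xist was seen on 4 of 4 adult MV and 3 of 4 adult LPS+MV arrays and on 0 of 8 others, so in adults ventilation and this pattern overlap. The adult count was 477 without control replicate 2, 497 without MV 3, 581 without LPS 2, 569 without LPS 3, 554 without LPS+MV 2 and 574 without LPS+MV 4.

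Genes above the sum at both ages included Rnf144b, at 0.89 ± 0.15 in adults (limma adjusted p = 0.002), Sowahb at 1.06 ± 0.25 (adjusted p = 0.012) and Sgms2 at 0.71 ± 0.18 (adjusted p = 0.021). Bex2 was at 0.69 ± 0.21 (adjusted p = 0.045), Tgfb1i1 at 0.41 ± 0.11 (adjusted p = 0.03) and Ppp1r14c at 0.50 ± 0.14 (adjusted p = 0.028). Below the sum, Slc26a4 was at -1.45 ± 0.21 in adults (adjusted p = 4.2e-04), with mean intensities of 1420 with LPS and 620 in LPS+MV. Snhg1 was at -0.95 ± 0.17 (adjusted p = 0.0021), Noxo1 at -0.42 ± 0.12 (adjusted p = 0.035), Mmp13 at -0.58 ± 0.13 (adjusted p = 0.011), Slc5a1 at -0.44 ± 0.10 (adjusted p = 0.012), Cd302 at -0.32 ± 0.10 (adjusted p = 0.041) and Sod2 at -0.32 ± 0.09 (adjusted p = 0.031).

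Hhex and Efna1 were among 5 genes that passed below the sum in juveniles and passed above it in adults. Hhex was at 0.88 ± 0.20 in adults (limma adjusted p = 0.011), with 206 in adult controls, 85.8 with MV, 110 with LPS and 95.9 in LPS+MV. Efna1 was at 0.61 ± 0.15 (adjusted p = 0.019). Orm1, at -0.06 ± 0.28 in adults (adjusted p = 0.91), and Clec14a, at -0.05 ± 0.16 (adjusted p = 0.88), were near 0 there. Their differences between ages, -1.54 ± 0.41 (adjusted p = 0.072) and -0.95 ± 0.24 (adjusted p = 0.058), did not pass.

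**Figure D4:**
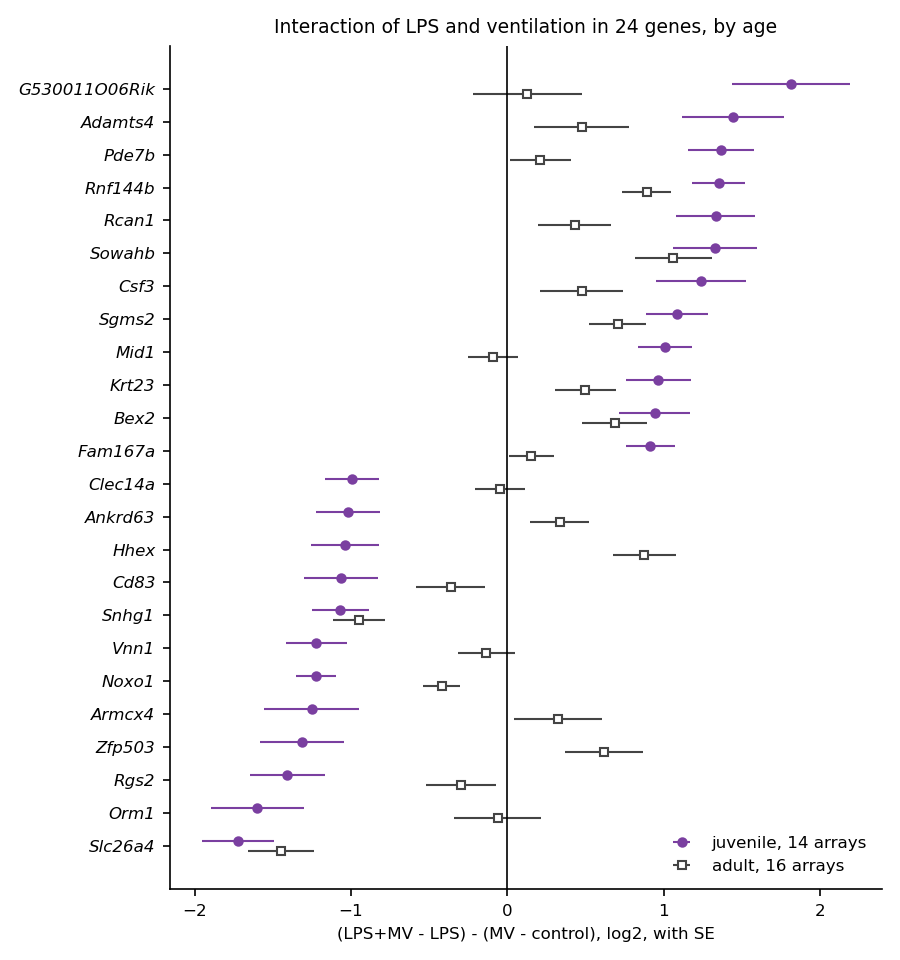
Interaction (log2, x axis) with its SE for the 12 highest and 12 lowest juvenile genes (y axis), in juveniles (filled circles, 14 arrays) and adults (open squares, 16 arrays). Slc26a4 and Snhg1 lie close together at both ages, while Hhex is at -1.04 in juveniles and 0.88 in adults.

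The juvenile minus adult difference of the interaction was tested in the same fit, and 89 genes passed (0.68%), 13 higher in juveniles (0.0993%) and 76 lower (0.581%). They include 17 of the 98, of which Mid1 was higher in juveniles and 16 were lower. The juvenile interaction, by which the 98 were chosen, is a term of this difference. The overlap and its direction therefore follow in part from that choice. Mid1 differed by 1.10 ± 0.24 (limma adjusted p = 0.025), Hhex by -1.91 ± 0.30 (adjusted p = 0.0015), Efna1 by -1.57 ± 0.23 (adjusted p = 9.8e-04) and Zfp503 by -1.93 ± 0.36 (adjusted p = 0.01). The count was 55 without juvenile MV replicate 1, 47 without juvenile MV 2, 58 without adult control 2, 58 without adult LPS 2, 50 without adult LPS 4, 56 without adult LPS+MV 2 and 56 without adult LPS+MV 4. With the Xist term it was 47.

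The next 6 genes, named for their difference between ages, did not pass in juveniles alone. Errfi1, a feedback inhibitor of the EGF receptor, had an interaction of 1.24 ± 0.42 in juveniles and -1.28 ± 0.38 in adults, a difference of 2.52 ± 0.57 (limma adjusted p = 0.032). Npr3, the natriuretic peptide clearance receptor, differed by 2.18 ± 0.45 (adjusted p = 0.019), with 0.26 ± 0.33 in juveniles and -1.92 ± 0.30 in adults. Sox11 and Sox4, transcription factors of the SoxC group, differed by -2.06 ± 0.42 (adjusted p = 0.019) and -2.02 ± 0.44 (adjusted p = 0.026). Slc10a6, a transporter of sulfated steroids, differed by 1.66 ± 0.37 (adjusted p = 0.033), and F3, tissue factor, by 1.33 ± 0.32 (adjusted p = 0.045).

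Of these, Npr3 and Sox11 passed in all 39 alternatives, each with a limma adjusted p of up to 0.049. Npr3 ran from 1.66 to 2.35 and Sox11 from -2.27 to -1.18. Errfi1 was lost in 8, by the Xist term (2.61, adjusted p = 0.054) and without juvenile MV replicate 1, MV 2 or LPS+MV 3 or adult MV 2, LPS 4, LPS+MV 2 or LPS+MV 4 (2.19 to 2.86 over all). Slc10a6 was lost in 9, by the Xist term (1.60) and without juvenile MV 2, LPS 3, LPS 4 or LPS+MV 3 or adult MV 2, LPS 4, LPS+MV 2 or LPS+MV 4 (1.43 to 1.81 over all). F3 was lost in 27 of 39 (1.12 to 1.48, adjusted p up to 0.12). Sox4 was lost in 2, by the Xist term (-1.86, adjusted p = 0.071) and without juvenile MV 2 (-1.86, adjusted p = 0.066). Over all alternatives Sox4 ran from -2.23 to -1.19.

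**Figure D5:**
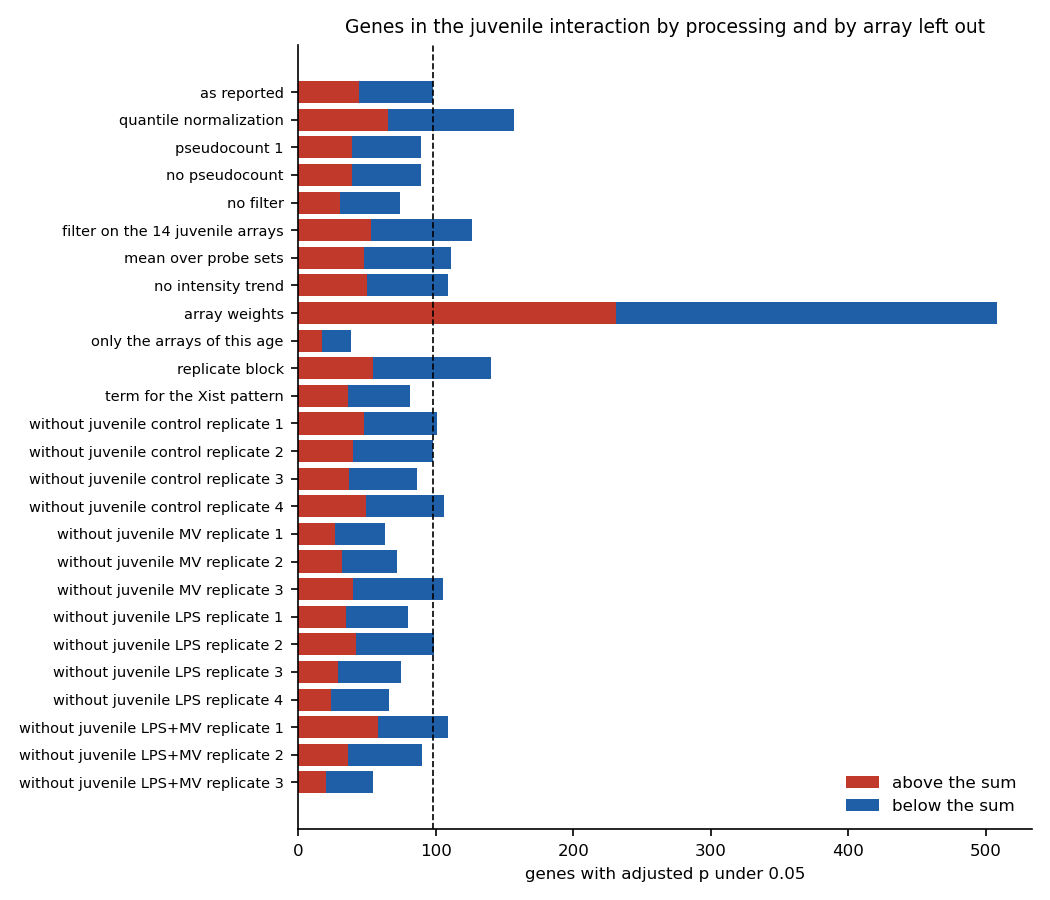
Number of genes with an adjusted p under 0.05 in the juvenile interaction (x axis) as reported and under each alternative (y axis), split into genes above (red) and below (blue) the sum. The dashed line marks the 98 reported, and counts run from 38 with the juvenile arrays fitted alone to 508 with array weights.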

How the data were processed

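The data are Affymetrix mouse 430 2.0 arrays of whole lung RNA. The authors deposited a linear intensity for each of 45037 probe sets, already normalized between arrays, with juvenile array medians of 21.56 to 22.79. The method is not given in the sources used here, and MAS5 is the only tool in the submitters' processing notes.

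Of the probe sets, 34945 carried 1 gene symbol in the platform annotation, 932 several and 9160 none. Probe sets above their own array's median on at least 3 of 30 arrays were kept, and the one with the highest mean stood for a gene. Values were log2(intensity + 32). Limma 3.58.1 in R 4.3.3 (lmFit, eBayes with an intensity trend) was fitted with 1 mean per group over all 30 arrays, which share the spread (22 residual and 4.87 prior degrees of freedom). Tests were two-sided, adjusted by Benjamini and Hochberg, with a threshold of 0.05. The model was tested on simulated data.

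Members and lists were chosen with earlier results of these data known. Genes named are the 12 highest and 12 lowest that passed, up to 3 per list of those that passed, and the 4 highest and 4 lowest for the age difference. Others are said to be named after their values were seen. Of 531 list entries, 490 were on the array. The alternatives were quantile normalization, a pseudocount of 1 or none, no filter, a filter on juvenile arrays, the mean over probe sets, no trend, array weights, 1 age alone, the replicate number as a block, an Xist term and each array left out. Of 44 genes that passed and had several probe sets, 40 had all of 1 sign. Figures were drawn with matplotlib 3.10.9.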

Additional observations from a re-analysis of the deposited data

Results flagged for a closer look

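In groups of 4 arrays, 3 values of named genes stood apart from the other 3 of their group by Dixon's criterion at its 95% level. Chance gives about 1 in 20 such groups, and 98 were looked at. Rnf144b was at 274 on juvenile LPS replicate 3 and at 362 to 379 on the other LPS arrays. Slc26a4 was at 54.7 on juvenile control replicate 3 and at 16.5 to 19.3 on the other controls. Sox4 was at 1030 on juvenile control replicate 4 and at 2220 to 2370 on the other controls.

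The interaction differed between juveniles and adults, by a limma test of the difference, in 14 named genes. Juvenile values were higher by 2.52 in Errfi1, 2.18 in Npr3, 1.66 in Slc10a6, 1.33 in F3 and 1.10 in Mid1. The juvenile minus adult difference was -2.06 in Sox11, -2.02 in Sox4, -1.93 in Zfp503, -1.91 in Hhex, -1.57 in Efna1, -1.36 in Ankrd63, -0.90 in Fmnl2, -0.80 in Noxo1 and -0.75 in Foxa2. Noxo1 was below the sum at both ages.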

How the results depend on the processing

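None of the 98 genes changed sign in any alternative run. Against 98 genes as reported (44 above and 54 below the sum), quantile normalization gave 157 (92 below), array weights 508 (231 and 277) and the juvenile arrays alone 38 (17 and 21). Whether the replicate numbers pair arrays was not settled. Of 19 same-numbered pairs, 8 had r over 0.1, and 3 of 14 arrays correlated best with their own number. Same-numbered pairs ran from -0.217 to 0.327 and differently numbered pairs from -0.328 to 0.371. MV replicate 3 and LPS+MV replicate 3 had the 0.327. With the replicate block 140 genes passed (86 below), and the age difference gave 135. Leaving out single arrays gave 54 to 109 genes, 20 to 58 above and 34 to 65 below. The adult count was 1604 with array weights and 477 to 982 without single arrays. The age difference, 89 as reported, gave 58 with quantile normalization, 375 with array weights, 47 with the Xist term and 47 to 114 without single arrays. Cxcl1, which did not pass, ran from -0.40 to 0.070 without single arrays, and turned sign without juvenile LPS+MV replicate 1. Of the 98 genes, 14 had a mean intensity under 64 in every group, where signal over background limits the fold. The causes of these shifts were not tested.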
